A study of Homo sapiens with 4 samples.

Results

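The genes of leukotriene and prostaglandin synthesis were examined in imatinib-sensitive TF1-BA cells and imatinib-resistant TF1-BAR cells. They were the rows of the FPKM table (fragments scaled to the length of a gene and to the size of the library) that carry one of 10 gene symbols: ALOX5, ALOX5AP, LTA4H and LTC4S of the leukotriene branch, PTGS1, PTGS2, HPGDS and PTGDR2 of the prostaglandin D2 branch, and the lipoxygenases ALOX12 and ALOX15. All 10 symbols were found, 10 of 32673 genes in the table, on 9 chromosomes. TF1 is a human erythroleukaemia line that grows on GM-CSF, and both groups carry BCR-ABL, the fusion kinase of chronic myeloid leukaemia, which had been brought into the parent line with a retrovirus. TF1-BAR cells were selected from TF1-BA cells by months of continuous exposure to imatinib, an inhibitor of this kinase. According to the labels, both lines were grown with 2 ng/mL GM-CSF and 10% serum (the paper's methods give a higher GM-CSF concentration), and 2 uM imatinib was added to the cultures of TF1-BAR cells. Drug exposure and resistance therefore cannot be told apart. The titles of the TF1-BAR libraries contain the word vector, and the effect of a vector, if there was one, would be part of every difference given here.

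Each line had 2 libraries, and the labels do not say whether they came from separate cultures, so p-values measure the spread between these libraries, which may be technical. The libraries held 18042299 and 15465497 fragments in TF1-BA cells and 15761642 and 16074303 in TF1-BAR cells. The Pearson r of log2 values across genes was 0.983 between the TF1-BA libraries and 0.979 between the TF1-BAR libraries. With 2 libraries per line, these values cannot show whether a library stood apart. The labels give no batch or date. All 8 TF1 identity markers, among them CD34, CD33, KIT, GATA1 and the GM-CSF receptor genes, were above 3 fragments in every library, with a summed FPKM of 316 and 297 in TF1-BA cells and 396 and 399 in TF1-BAR cells. Of these markers CD34, CD33 and KIT rose in TF1-BAR cells and 5 did not pass the test described below. That test called 16.3% of all tested genes higher and 10.5% lower.

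Leukotrienes and prostaglandins are lipid mediators made from arachidonic acid, a fatty acid that phospholipases A2 cut from membrane lipids. The lipoxygenase ALOX5, with its helper protein ALOX5AP (FLAP), turns arachidonic acid into leukotriene A4, from which LTA4H makes leukotriene B4 and LTC4S makes leukotriene C4. The cyclooxygenases PTGS1 and PTGS2 make prostaglandin H2, which terminal synthases such as HPGDS turn into the separate prostaglandins and thromboxane. In blood these genes are best known from mast cells, basophils, eosinophils, neutrophils, monocytes and platelets.

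PTGS1 rose and PTGS2 fell in the imatinib-resistant cells, so that the cyclooxygenases moved in opposite directions. ALOX5AP and PTGDR2, a receptor for prostaglandin D2, also rose, by ratios of 1.88 and 1.81. ALOX5 itself, LTA4H, HPGDS and ALOX12 did not pass the test, and LTC4S and ALOX15 were too low to be tested. The limma test, with Benjamini-Hochberg adjustment, took log2(FPKM + 0.5) of the 15519 genes whose FPKM averaged 0.5 or more, and these included 8 of the 10 genes. Fold changes are on the scale of log2(FPKM + 0.5), TF1-BAR minus TF1-BA, which understates the change of low genes. At an adjusted p under 0.05, 3 of the 8 were higher and 1 was lower, where the same test called 16.3% of all tested genes higher and 10.5% lower. Differential expression, which also asks for a log2 fold change of at least 1 in size, was reached by 0 genes in the higher direction (background 3.05%) and by PTGS2 alone in the lower (1.69%). At an unadjusted p under 0.05 limma gave 4 higher and 1 lower, against 25.5% and 16.7% of all tested genes. With limma voom on the recovered fragments ALOX5AP, PTGS1 and PTGDR2 were also higher by the adjusted p (0.000486, 1.79e-06 and 0.000364), 0 genes were called higher at both thresholds, and PTGS2 was called lower. The libraries of the lines did not overlap for 6 of the 8 genes, 5 higher and 1 lower, against 40.9% and 28.4% of all tested genes. With 2 against 2 libraries, the smallest two-sided exact permutation p for a single gene is 0.333, so that every call rests on a spread that limma shares across genes. These are bulk RNA libraries, in which fewer cells expressing a gene and less RNA per cell cannot be told apart.

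**Figure D1:**
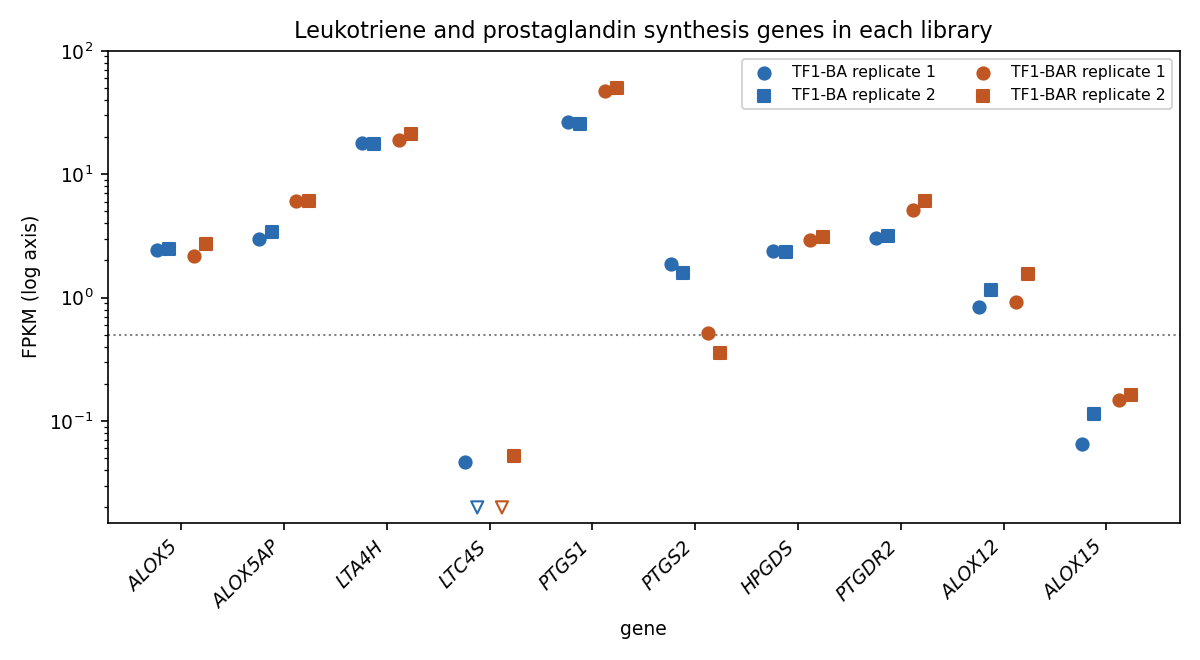
FPKM (log axis) of the 10 genes in each of the 4 libraries, with circles for replicate 1, squares for replicate 2 and open triangles for values listed at 0, drawn at the bottom of the axis. The dotted line is the mean FPKM of 0.5 asked for by the test. PTGS1, ALOX5AP and PTGDR2 lie higher in TF1-BAR cells (orange), PTGS2 lies lower, and ALOX5 and ALOX12 overlap.

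PTGS1, the cyclooxygenase that most cells of the platelet lineage make constitutively, was the highest of the 10 genes in every library. It was measured at an FPKM of 26.3 and 25.4 in TF1-BA cells and 47.4 and 50.2 in TF1-BAR cells, from 2743, 2275, 4326 and 4673 fragments. Both TF1-BAR libraries were above both TF1-BA libraries. The means were 25.8 ± 0.602 and 48.8 ± 1.98 (SD, n = 2), a ratio of 1.89. Its log2 fold change was 0.90 (SE 0.0651, 95% interval 0.74 to 1.07, limma adjusted p = 0.00409), and its mean level was at the 93.3rd percentile of the tested genes. The gene lies on the forward strand at chr9:122370530-122395703 (GRCh38). Without TF1-BA replicate 1 or 2 the adjusted p of PTGS1 was 0.0528 or 0.0565, with log2 fold changes of 0.93 and 0.88. In such fits the lone library is assumed to vary like the other group.

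PTGS2, the inducible cyclooxygenase that is switched on by cytokines and growth factors, was at an FPKM of 1.86 and 1.58 in TF1-BA cells and 0.518 and 0.354 in TF1-BAR cells. The fragments behind these values were 177, 129, 43 and 30. Both TF1-BAR libraries were below both TF1-BA libraries, and all 4 were above the floor of 3 fragments. The mean fell from 1.72 ± 0.197 to 0.436 ± 0.116 (SD, n = 2), a level 3.95 times higher in TF1-BA cells. The TF1-BAR mean was below 0.5 FPKM, so the gene passed the filter through its TF1-BA values. On the log2 scale with the pseudocount the change was -1.25 (SE 0.177, 95% interval -1.71 to -0.79, limma adjusted p = 0.0121). Its mean level was at the 17.2nd percentile of the tested genes, so the size of this fold depends on the pseudocount, from -0.92 with 1 FPKM to -1.78 with 0.1 FPKM. The call of PTGS2 was lost without TF1-BA replicate 1 (adjusted p = 0.0848), TF1-BA replicate 2 (0.0749) or TF1-BAR replicate 2 (0.0559), and with no filter on low genes (0.0740). With a pseudocount of 1 FPKM it missed the fold threshold. PTGS2 is on the reverse strand at chr1:186671791-186680427, on a chromosome where the median log2 fold change of tested genes was 0.05.

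The balance of the cyclooxygenases can be read within each library, where a ratio of FPKM does not depend on depth. PTGS1 exceeded PTGS2 by 14.1 and 16.0 times in TF1-BA cells and by 91.6 and 142 times in TF1-BAR cells. PTGS1 thus made up 93.4% and 94.1% of the summed cyclooxygenase FPKM in TF1-BA cells and 98.9% and 99.3% in TF1-BAR cells. The sum itself was 28.1 and 27.0 in TF1-BA cells and 47.9 and 50.6 in TF1-BAR cells, so the total transcript level was higher although PTGS2 fell.

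The sequences before the start sites of PTGS2, PTGS1 and ALOX5AP are shown because these genes passed the test and have an entry in the RefSeq promoter table (GRCh38.p14), which holds 7 of the 10 genes. Each run is the 250 bases upstream of the RefSeq start site, 5′ to 3′ on the strand of the gene. Capitals mark the motifs searched on both strands. These were the letters TATAAA for the TATA box, CGTCA for the core of a cyclic AMP response element, the form AGATAA, with TGATAA as another form, for the sites of GATA factors, and the letters GGGCGG for the GC box. In these runs no motif overlapped another.
PTGS2, chr1:186680424-186680673, reverse strand: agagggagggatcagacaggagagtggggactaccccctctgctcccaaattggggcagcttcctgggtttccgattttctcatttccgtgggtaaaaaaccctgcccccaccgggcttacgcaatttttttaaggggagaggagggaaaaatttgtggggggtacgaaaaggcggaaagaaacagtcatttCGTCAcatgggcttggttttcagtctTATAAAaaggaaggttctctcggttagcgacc
PTGS1, chr9:122370283-122370532, forward strand: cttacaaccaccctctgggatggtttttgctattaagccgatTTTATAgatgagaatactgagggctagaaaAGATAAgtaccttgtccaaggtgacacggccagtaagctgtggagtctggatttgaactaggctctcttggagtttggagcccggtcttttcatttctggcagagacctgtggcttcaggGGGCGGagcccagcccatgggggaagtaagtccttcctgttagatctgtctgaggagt
ALOX5AP, chr13:30713235-30713484, forward strand: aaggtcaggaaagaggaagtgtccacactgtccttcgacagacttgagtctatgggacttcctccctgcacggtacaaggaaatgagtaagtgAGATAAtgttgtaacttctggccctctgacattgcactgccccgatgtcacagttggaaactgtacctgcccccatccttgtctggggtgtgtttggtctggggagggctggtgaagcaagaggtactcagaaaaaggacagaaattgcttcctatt
The PTGS2 run held TATAAA 32 to 27 bases and CGTCA 58 to 54 bases upstream of the start, and none of the other letters searched. TATAAA is found in 10.7% and CGTCA in 21.2% of all 35116 upstream sequences of the table, on either strand. In the PTGS1 run AGATAA stood 178 to 173 bases upstream, GGGCGG 58 to 53 bases upstream, and TATAAA on the opposite strand (printed as TTTATA) 208 to 203 bases upstream. ALOX5AP held AGATAA 157 to 152 bases upstream. AGATAA is present in 9.17% and GGGCGG in 42.6% of all entries, and TGATAA, found in none of the 3 runs, in 6.66%. The GC content was 50.4% for PTGS2 and 49.6% for both PTGS1 and ALOX5AP, with a median of 58.0% over all entries. PTGS1 has another RefSeq start site further downstream, whose 250 upstream bases (not printed) had a GC content of 65.2% and held GGGCGG but none of the other letters searched, and the FPKM table does not separate transcripts by their start. ALOX5, PTGDR2 and ALOX15 have no entry.

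HPGDS, the hematopoietic synthase of prostaglandin D2 and an enzyme typical of mast cells and megakaryocytes, was at an FPKM of 2.39 and 2.36 in TF1-BA cells and 2.92 and 3.12 in TF1-BAR cells (91, 77, 97 and 106 fragments). The TF1-BAR libraries were the higher without overlap, but the difference did not pass the adjusted threshold. Its means of 2.37 ± 0.0217 and 3.02 ± 0.147 (SD, n = 2) gave a log2 fold change of 0.29 (SE 0.0965, 95% interval 0.043 to 0.54, limma adjusted p = 0.0833). HPGDS lies at chr4:94298535-94342876 on the reverse strand. Set against PTGS1, which supplies its substrate, the ratio of PTGS1 to HPGDS was 11.0 and 10.8 in TF1-BA cells and 16.3 and 16.1 in TF1-BAR cells.

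PTGDR2 (CRTH2), the prostaglandin D2 receptor of basophils, eosinophils and type 2 helper T cells, had an FPKM of 3.06 and 3.13 in TF1-BA cells and 5.15 and 6.06 in TF1-BAR cells. These values came from 160, 140, 235 and 282 fragments, and both TF1-BAR libraries were the higher. The mean rose from 3.10 ± 0.0450 to 5.61 ± 0.643 (SD, n = 2), a ratio of 1.81, with a log2 fold change of 0.76 (SE 0.106, 95% interval 0.49 to 1.03, limma adjusted p = 0.0118). The gene, on the reverse strand at chr11:60850940-60855971, overlaps CCDC86 on the opposite strand, and the sources used here do not say that strand was used in counting. CCDC86 had an FPKM of 12.1, 12.0, 13.5 and 12.4 in the 4 libraries, and the part of its reads in the values of PTGDR2 was not tested. The adjusted p of PTGDR2 was 0.0941, 0.0934 and 0.0546 without TF1-BA replicate 1, TF1-BA replicate 2 and TF1-BAR replicate 2, and 0.0715 with no filter.

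In the leukotriene branch, ALOX5AP rose, while ALOX5 did not pass the test, and the difference between them was not tested. ALOX5 had an FPKM of 2.41 and 2.50 in TF1-BA cells and 2.19 and 2.72 in TF1-BAR cells (162, 144, 129 and 163 fragments), and the TF1-BA values lay between the TF1-BAR values. Means of 2.45 ± 0.0630 and 2.46 ± 0.371 (SD, n = 2) gave a log2 fold change of -0.0032 (SE 0.126, 95% interval -0.33 to 0.32, limma adjusted p = 0.988). The interval leaves room for a change in either direction up to these limits. ALOX5 lies at chr10:45374176-45446119 on the forward strand, and over the tested genes of chromosome 10 the median log2 fold change was -0.35, while the medians of the other chromosomes that hold the 10 genes ran from -0.01 to 0.11. Relative to its chromosome, the log2 fold change of ALOX5 was 0.34 (adjusted p = 0.105).

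ALOX5AP was at an FPKM of 3.01 and 3.39 in TF1-BA cells and 6.03 and 6.02 in TF1-BAR cells, from 93, 90, 163 and 166 fragments. The TF1-BAR libraries were nearly equal and above both TF1-BA libraries. The mean rose from 3.20 ± 0.274 to 6.03 ± 0.00599 (SD, n = 2), a ratio of 1.88, with a log2 fold change of 0.82 (SE 0.0933, 95% interval 0.58 to 1.06, limma adjusted p = 0.00828). The gene is at chr13:30713478-30764426 on the forward strand, on a chromosome with a median log2 fold change of 0.00. Its adjusted p was 0.0756, 0.0655 and 0.0534 without TF1-BA replicate 1, TF1-BA replicate 2 and TF1-BAR replicate 2. The ratio of ALOX5AP to ALOX5 was 1.25 and 1.36 in TF1-BA cells and 2.75 and 2.21 in TF1-BAR cells.

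LTA4H, the hydrolase that makes leukotriene B4 and also trims peptides, was the second highest of the 10 genes, with an FPKM of 18.0 and 17.6 in TF1-BA cells and 19.1 and 21.0 in TF1-BAR cells (2384, 2003, 2212 and 2482 fragments). The libraries did not overlap, yet the means of 17.8 ± 0.252 and 20.1 ± 1.35 (SD, n = 2) differed by a log2 fold change of only 0.17 (SE 0.0761, 95% interval -0.03 to 0.36, limma adjusted p = 0.167). It lies at chr12:96000828-96043520 on the reverse strand. LTA4H exceeded ALOX5 in all libraries, by 7.47 and 7.06 times in TF1-BA cells and by 8.70 and 7.73 times in TF1-BAR cells.

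LTC4S, the synthase that joins glutathione to leukotriene A4, was covered by 1 and 0 fragments in TF1-BA cells and by 0 and 1 in TF1-BAR cells, at or under the floor of 3 fragments in every library, and no fold is given. The gene, at chr5:179793980-179796647 on the forward strand, lies within MAML1, which was expressed at an FPKM of 5.26, 4.88, 6.19 and 7.73. MGST2, a microsomal transferase that can also make leukotriene C4, was expressed at 9.11 and 9.18 FPKM in TF1-BA cells and 10.4 and 10.5 in TF1-BAR cells (log2 fold change 0.18, limma adjusted p = 0.115). MGST2 was outside the rule for naming and was chosen after its values were seen.

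Of the other lipoxygenases, ALOX12, the platelet enzyme, had an FPKM of 0.847 and 1.16 in TF1-BA cells and 0.922 and 1.55 in TF1-BAR cells (40, 47, 38 and 65 fragments), and the lines overlapped. Its log2 fold change was 0.19 (SE 0.236, 95% interval -0.42 to 0.80, limma adjusted p = 0.582), and -0.07 without TF1-BAR replicate 2. ALOX12, at chr17:6996065-7010736 on the forward strand, lies inside its antisense gene ALOX12-AS1, which was the higher at an FPKM of 4.27, 3.9, 5.11 and 4.22, and without strand in counting the reads of such a pair cannot be told apart. ALOX15, the lipoxygenase of eosinophils and of alternatively activated macrophages, at chr17:4630902-4642294 on the reverse strand, had 4 and 6 fragments in TF1-BA cells and 8 and 9 in TF1-BAR cells, with an FPKM from 0.0651 to 0.164, below the filter. Among ALOX12B, ALOX15B and ALOXE3, 0 of 3 passed the filter, and ALOX15B, the highest by its mean over the 4 libraries, had 6, 7, 3 and 2 fragments.

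Summed over the 10 genes, the FPKM was 57.9 and 57.3 in TF1-BA cells and 84.4 and 91.3 in TF1-BAR cells, most of it from PTGS1 and LTA4H. The median log2 fold change of the 8 tested genes was 0.24, and that of all 15519 tested genes was 0.066.

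**Figure D2:**
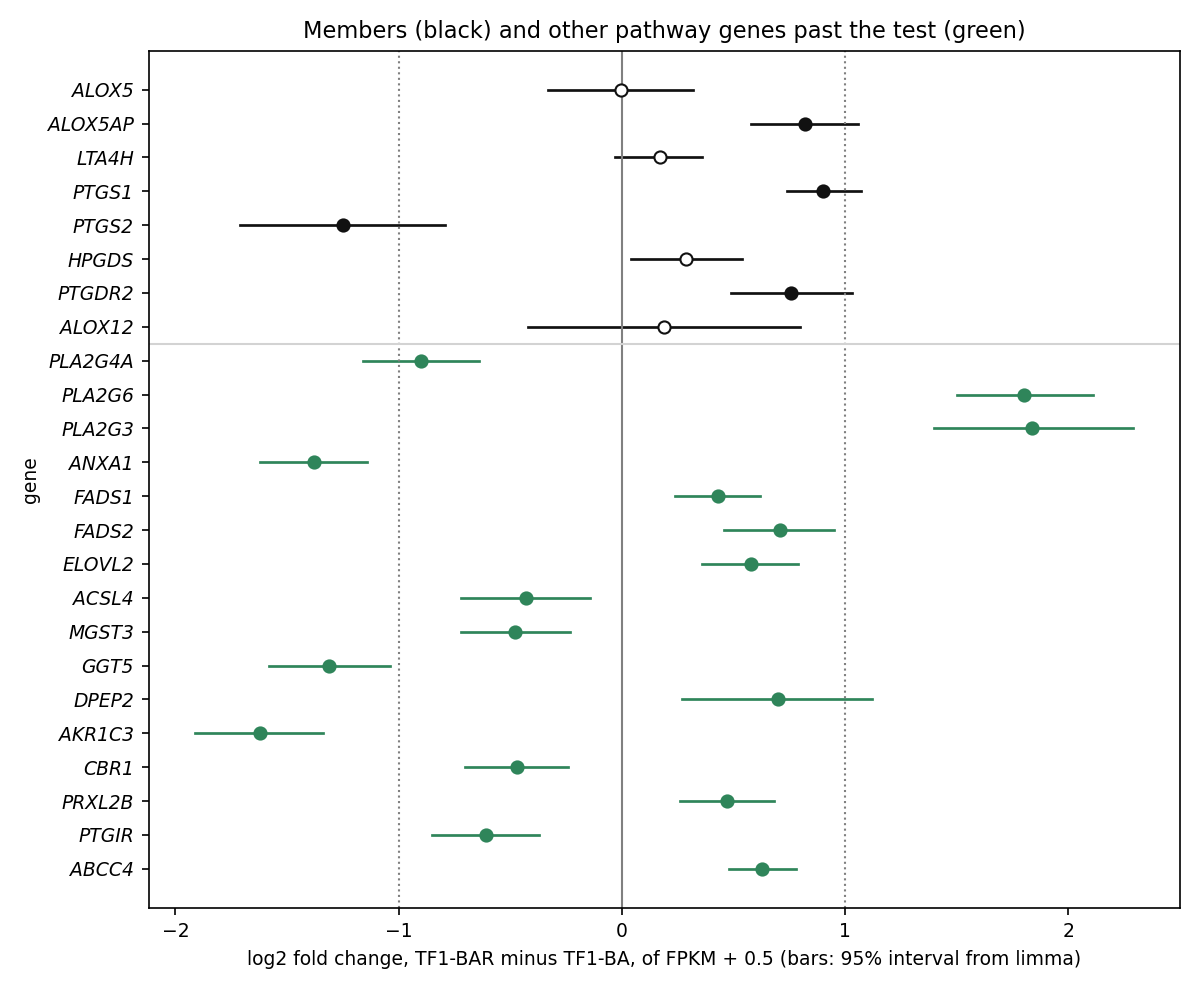
Log2 fold change of FPKM + 0.5, TF1-BAR minus TF1-BA, with the 95% interval from limma, for the 8 tested genes (black) and for the 16 other pathway genes at an adjusted p under 0.05 (green). Filled circles passed the test and open circles did not, and dotted lines mark a log2 fold change of 1 in either direction. PLA2G6 and PLA2G3 lie farthest to the right, and AKR1C3, ANXA1, GGT5 and PTGS2 lie beyond the left line.

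The rest of the pathway was followed through 65 listed genes, of which 57 were in the table and 36 were tested. In TF1-BAR cells 8 rose, 8 fell and 20 did not pass the test, where 16.3% of all tested genes rose and 10.5% fell, and the median log2 fold change was 0.041. Differential expression at both thresholds was met by 2 genes in the higher direction, PLA2G6 and PLA2G3 (background 3.05%), and by 3 in the lower, ANXA1, GGT5 and AKR1C3 (1.69%). With no filter on low genes the calls of FADS1, FADS2, ACSL4, MGST3, DPEP2, CBR1, PRXL2B and PTGIR, none of which met the fold threshold, were lost, at adjusted p from 0.0610 (MGST3) to 0.190 (ACSL4).

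At the step that releases arachidonic acid, the phospholipases A2 moved in opposite directions. PLA2G4A, the calcium-dependent cytosolic phospholipase that prefers arachidonic acid, fell from an FPKM of 12.2 and 10.5 in TF1-BA cells to 6.0 and 5.65 in TF1-BAR cells (log2 fold change -0.90, SE 0.101, limma adjusted p = 0.00804). PLA2G6, the calcium-independent phospholipase, rose from 5.51 and 6.09 to 19.5 and 23.7 (1.80, SE 0.118, adjusted p = 0.00392). PLA2G6 overlaps MAFF on the opposite strand, which had 177, 201, 223 and 316 fragments against 672, 636, 2073 and 2573 of PLA2G6, and the part of shared reads was not tested. The ratio of PLA2G6 to PLA2G4A passed from 0.452 and 0.582 in TF1-BA cells to 3.24 and 4.19 in TF1-BAR cells, so that the more abundant transcript of the pair was a different one in each line. PLA2G3, a secreted phospholipase that takes part in mast cell maturation, rose from 0.596 and 0.384 to 3.32 and 2.77 (29, 16, 141 and 120 fragments, log2 fold change 1.84, SE 0.173, adjusted p = 0.00603). Its mean FPKM in TF1-BA cells was 0.49, so it passed the filter of 0.5 through its TF1-BAR values. ANXA1, the annexin first described as an inhibitor of phospholipase A2, fell from 28.3 and 33.0 to 11.6 and 11.3 (-1.38, SE 0.0948, adjusted p = 0.00409). The other tested gene did not pass, and 9 of the 14 genes of this list in the table were below the filter. Without TF1-BA replicate 2 the adjusted p was 0.0527 for PLA2G6 and ANXA1, 0.0565 for PLA2G3 and 0.0579 for PLA2G4A. That of PLA2G4A was 0.0698 without TF1-BA replicate 1 and 0.0535 without TF1-BAR replicate 2, and with no filter on low genes it was 0.0611 and that of PLA2G3 was 0.0551.

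**Figure D3:**
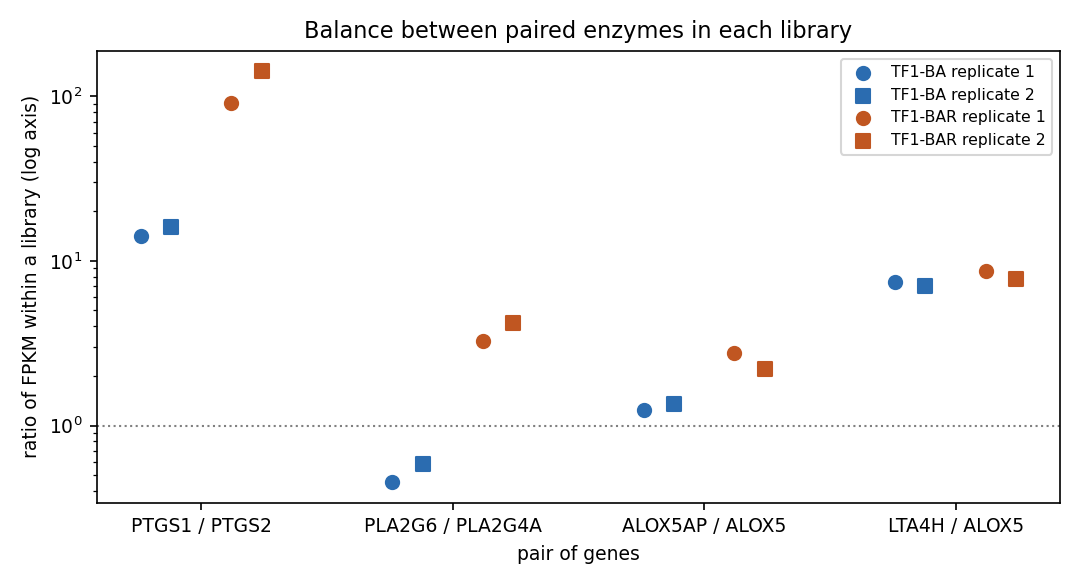
Ratio of FPKM within each library (log axis) for 4 pairs of genes, with circles for replicate 1 and squares for replicate 2. PTGS1 over PTGS2 rises from 14.1 and 16.0 in TF1-BA cells (blue) to 91.6 and 142 in TF1-BAR cells (orange), PLA2G6 over PLA2G4A crosses the dotted line at 1, and LTA4H over ALOX5 stays between 7.06 and 8.70.

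PLA2G4A and PTGS2 are neighbours in the genome. PLA2G4A, on the forward strand at chr1:186828953-186988981, begins 149 kb from PTGS2. Of the 15 genes of the table within 500 kb of PTGS2, 5 were tested, and besides PTGS2 only PLA2G4A passed the test. Over all tested genes the same test called 16.3% higher and 10.5% lower, so this count does not set the region apart. PLA2G4A was the only tested gene on its side of PTGS2. On the other side the nearest tested protein-coding genes were OCLM, with a log2 fold change of -0.13 (limma adjusted p = 0.476), and C1orf27, with 0.20 (0.304). TPR and PACERR were chosen after their values were seen. TPR, next to C1orf27, had a log2 fold change of 0.037 (0.682). PACERR, a long non-coding RNA which lies 194 bases from PTGS2 and was below the filter, had 9, 5, 6 and 2 fragments.

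**Figure D4:**
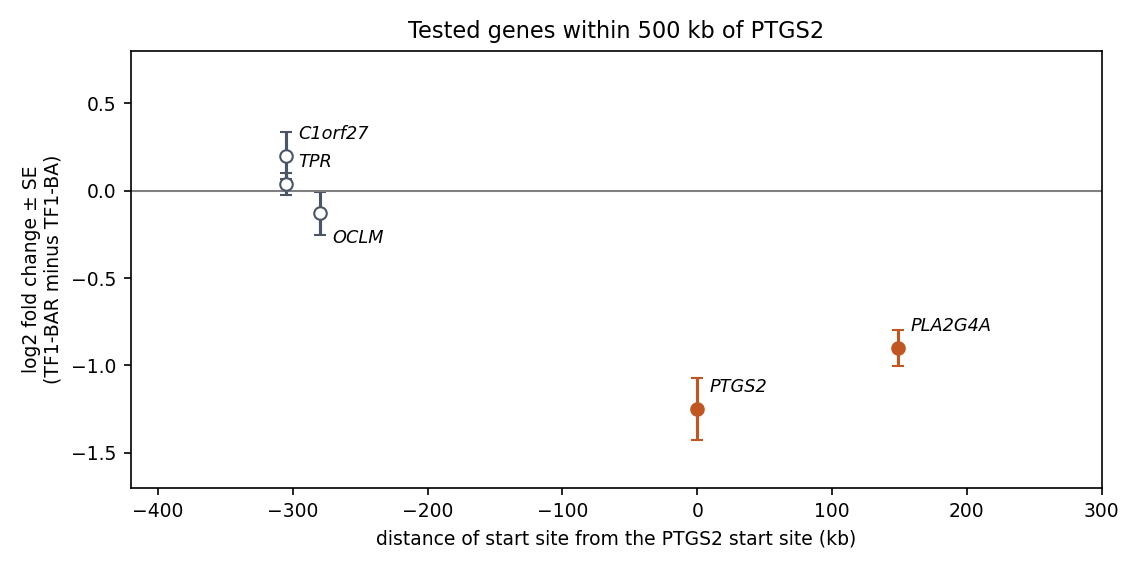
Log2 fold change (TF1-BAR minus TF1-BA, with the SE from limma) of the 5 tested genes within 500 kb of PTGS2, against the distance of their start sites from that of PTGS2 in kb. PTGS2 and PLA2G4A (filled) lie at -1.25 and -0.90, and OCLM, C1orf27 and TPR (open) lie between -0.13 and 0.20.

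Genes that supply and store arachidonic acid were all expressed, with 7 of 7 tested, 3 higher (background 16.3%), 1 lower (10.5%) and 3 not past the test. The desaturases FADS1 and FADS2 and the elongase ELOVL2, which build long polyunsaturated fatty acids, rose in TF1-BAR cells by log2 fold changes of 0.43, 0.71 and 0.58 (limma adjusted p = 0.0188, 0.0113 and 0.0124). FADS2 was at an FPKM of 11.9 and 11.3 in TF1-BA cells and 20.8 and 17.9 in TF1-BAR cells. FADS1 and FADS2 overlap on opposite strands, so reads may be shared between them. ACSL4, which couples arachidonic acid to coenzyme A for storage in phospholipids, fell from 31.6 and 28.2 to 24.1 and 20.1 (log2 fold change -0.43, adjusted p = 0.0475, but 0.0636 with TPM and 0.0849 without the variance trend). The call of FADS1 was lost whichever library was left out, with adjusted p from 0.0528 to 0.142. Without TF1-BA replicate 1 or 2 the adjusted p was 0.0829 or 0.0941 for FADS2, 0.109 or 0.102 for ELOVL2 and 0.234 or 0.139 for ACSL4. Without TF1-BAR replicate 2 that of ELOVL2 was 0.0620 and that of ACSL4 was 0.129.

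In the list of cysteinyl leukotriene processing, 1 of 6 tested genes rose (background 16.3%) and 2 fell (10.5%). GGT5, the transpeptidase that turns leukotriene C4 into D4, fell from an FPKM of 9.11 and 8.31 in TF1-BA cells to 3.46 and 2.99 in TF1-BAR cells (log2 fold change -1.31, SE 0.104, limma adjusted p = 0.00473). DPEP2, a dipeptidase that turns D4 into E4, rose from 0.713 and 0.684 to 1.27 and 1.64 (0.70, adjusted p = 0.0375), and MGST3 fell from 3.09 and 3.07 to 2.10 and 2.04 (-0.48, adjusted p = 0.0254). GGT5 had an adjusted p of 0.0564 without TF1-BA replicate 1 and 0.0565 without TF1-BA replicate 2, while DPEP2 (0.0511 to 0.153) and MGST3 (0.0596 to 0.162) lost their calls whichever library was left out. DPEP2 also lost its call with the replicate block (0.0556), with quantile normalization (0.0636) and relative to its chromosome (0.0651), while limma voom gave a log2 fold change of 1.04 (0.00262), past both thresholds. It overlaps DUS2 on the opposite strand. Among the leukotriene receptors 0 of 3 tested genes passed limma's adjusted test, with 2 higher at an unadjusted p under 0.05, LTB4R and CYSLTR1 (background 25.5%). LTB4R, the high-affinity receptor for leukotriene B4 and the highest of this list, was at 5.24 and 5.0 in TF1-BA cells and 5.85 and 6.76 in TF1-BAR cells (log2 fold change 0.27, adjusted p = 0.101, and 0.0542 by limma voom), and it overlaps LTB4R2. The cysteinyl leukotriene receptors were chosen after their values were seen. CYSLTR1 had 27 and 30 fragments in TF1-BA cells and 74 and 63 in TF1-BAR cells (log2 fold change 0.65, adjusted p = 0.0709, 0.0294 without the variance trend, and 1.33 with 0.00105 by limma voom). Its mean FPKM in TF1-BA cells was 0.308, so it passed the filter of 0.5 through its TF1-BAR values. CYSLTR2, below the filter, had 5 and 7 fragments in TF1-BA cells and 30 and 25 in TF1-BAR cells.

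The terminal prostanoid synthases comprised 7 tested genes, with 1 higher (background 16.3%), 2 lower (10.5%) and 4 not past the test. AKR1C3, a reductase that makes prostaglandin F and its relatives and also acts on steroids, fell from an FPKM of 3.97 and 3.67 in TF1-BA cells to 0.924 and 0.879 in TF1-BAR cells (325, 257, 66 and 64 fragments, log2 fold change -1.62, SE 0.110, limma adjusted p = 0.00409). It lies on chromosome 10, like ALOX5, and after the median of that chromosome was subtracted its log2 fold change was -1.28. AKR1C3 has close paralogues between which reads may be split. CBR1, a carbonyl reductase that acts on prostaglandins among other substrates, fell from 17.3 and 16.8 to 13 and 11.3 (-0.47, adjusted p = 0.0230) and overlaps SETD4 on the opposite strand, and PRXL2B, also a prostaglandin F synthase, rose from 6.76 and 6.18 to 8.98 and 9.30 (0.47, adjusted p = 0.0196). TBXAS1, the thromboxane synthase, which was chosen after its values were seen, had 4.98 and 4.87 in TF1-BA cells and 4.78 and 4.95 in TF1-BAR cells (-0.017, 95% interval -0.22 to 0.19). PTGES3, chosen likewise, did not pass the limma test (adjusted p = 0.0882) and was lower by limma voom (0.0120). Without TF1-BA replicate 1 or 2 the adjusted p of AKR1C3 was 0.0528 or 0.0527, and that of CBR1 was 0.147 or 0.133, with 0.0623 without TF1-BAR replicate 2. The call of PRXL2B was lost whichever library was left out (0.0508 to 0.143).

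Of the prostanoid receptors 4 were tested, of which 1 fell (background 10.5%) and 3 did not pass the test. Among these 3, PTGER3, chosen after its values were seen, was lower by limma voom (adjusted p = 0.0225). PTGIR, the prostacyclin receptor, fell from an FPKM of 21.6 and 23.7 in TF1-BA cells to 13.8 and 15.6 in TF1-BAR cells (log2 fold change -0.61, SE 0.0924, limma adjusted p = 0.0137). In the list of export, uptake and breakdown, 1 of 4 tested genes passed, in the higher direction (background 16.3%). ABCC4 (MRP4), a transporter that exports prostaglandins and other organic anions, rose from 27.7 and 27.7 to 42.8 and 43.5 (0.63, SE 0.0585, adjusted p = 0.00597). The adjusted p of PTGIR was 0.0831 and 0.108, and that of ABCC4 was 0.0698 and 0.0711, without TF1-BA replicate 1 and 2.

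Markers of the blood cells in which these genes are best known also differed between the lines, and their part in the results above was not tested. Of the mast cell and basophil markers, 7 of 8 were tested, 4 rose and 2 fell, where 16.3% of all tested genes rose and 10.5% fell, and the summed FPKM was 76.0 and 72.8 in TF1-BA cells and 133 and 136 in TF1-BAR cells. HDC (histidine decarboxylase), FCER1A and MS4A2 (chains of the high-affinity IgE receptor) and CPA3 (mast cell carboxypeptidase) rose, while TPSB2 (a tryptase) and ENPP3 fell, and CMA1 (chymase) had at most 1 fragment in each library. CPA3 had 2 and 1 fragments in TF1-BA cells, under the floor of 3, and 14 and 16 in TF1-BAR cells. It passed the filter only through its TF1-BAR values. HDC was at an FPKM of 26.1 and 26.0 in TF1-BA cells and 57.5 and 64.4 in TF1-BAR cells. The megakaryocyte and platelet list, the lineage in which PTGS1, ALOX12 and TBXAS1 are well known, had 3 of 4 reported genes tested and all 3 higher (background 16.3%), with a sum of 136 and 145 in TF1-BA cells and 189 and 211 in TF1-BAR cells. These were ITGA2B (the integrin chain of platelets), GP9 and GP1BA (chains of the von Willebrand factor receptor). GP1BA was at an FPKM of 8.27 and 8.95 in TF1-BA cells and 20.3 and 22.6 in TF1-BAR cells, and PPBP had at most 2 fragments. The eosinophil list had 1 of 3 tested genes higher (SIGLEC8) and 1 lower (PRG2), with sums of 6.66 and 6.10 against 4.90 and 5.41, and CLC had 0 to 3 fragments. The monocyte and macrophage list had 1 of 2 tested genes higher (CSF1R), with sums of 15.5 and 14.1 against 18.2 and 17.3, and CD14 had at most 1 fragment in a library. CSF1R, with a mean FPKM of 0.271 in TF1-BA cells and 1.33 in TF1-BAR cells, passed the filter only through its TF1-BAR values. Of the lymphocyte list, 1 of 3 tested genes rose (CD79A) and 1 fell (CD3D), with sums of 22.4 and 24.2 against 10.3 and 10.5, and CD3E had at most 1 fragment in a library.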

How the data were processed

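RNA of TF1-BA and TF1-BAR cells (2 libraries each, 4 in all) had been sequenced by the authors as paired reads. The authors deposited FPKM per gene and library, made by mapping to GRCh38 with TopHat2 2.0.13 and by Cufflinks 2.2.0 and Cuffdiff 2.2.0, as named in the submitters' processing notes. The authors tested with DESeq2, which was not used here since the deposited unit is FPKM. The annotation release is not given in the sources used here. The table holds 32673 genes, in which 26 symbols read as dates and were replaced by way of the gene identifiers.

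Whole fragments behind the FPKM were recovered by a search for library sizes and gene lengths that make all values of a gene whole within 0.01 fragments. All 30853 genes above 0 were whole, 14816 of them at their GENCODE 44 exon length and 16037 at a fitted length, which is a weaker check, and of 300 genes tried with wrong library sizes 0 were whole. Listed genes hold 98.6% to 98.7% of each library. Expression was read only above a floor of 3 fragments, which covers counting error only.

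limma 3.58.1 in R 4.3.3 (lmFit, eBayes with trend) was run on log2(FPKM + 0.5) of the 15519 genes whose FPKM averaged 0.5 or more, and p-values were adjusted over all of them by Benjamini-Hochberg. Genes rose or fell at an adjusted p under 0.05, and were called differentially expressed if the log2 fold change was also at least 1 in size. The genes and lists were chosen with earlier results of these data known. The genes named are the 10, every other pathway gene at an adjusted p under 0.05, the highest gene of a list without any, and the nearest tested neighbours within 500 kb of a differentially expressed gene of the 10. Others are marked, except genes that overlap a named gene and markers of cell types. Of the megakaryocyte and platelet markers, 1 gene is not reported here and is left out of the list's counts and sums. PRXL2B is listed under its older symbol. The alternatives were other pseudocounts, filters, scalings and variance models, limma voom on the fragments, a replicate block, chromosome medians and leaving out each library. Chi-square per degree of freedom between replicates was 3.74 and 6.34, so the libraries differ by more than counting noise.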

Additional observations from a re-analysis of the deposited data

How the results depend on the processing

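With the adjusted p and no fold threshold, 3 of the 10 genes (8 tested) were called higher in place of 0. Of the other pathway genes (36 tested), 8 were called higher and 8 lower in place of 2 and 3. Over all tested genes the share called rose from 3.05% to 16.3% in the higher direction and from 1.69% to 10.5% in the lower. No setting that kept the fold threshold called any of the 10 higher. The lower call, PTGS2, became 0 with a pseudocount of 1 FPKM, where its log2 fold change was -0.92, and 0 with no filter, where more genes entered the adjustment. Leaving out 1 library gave 0 to 1 lower calls among the 10, 0 to 2 higher and 0 to 3 lower calls among the other pathway genes, with 0 and 0 without TF1-BA replicate 2 and 2 and 1 without TF1-BA replicate 1. With no filter 1 other pathway gene was called higher, and with limma voom 4 were. The cause was not tested beyond what a setting itself removes. The sign of ALOX5 turned to 0.0536 with TPM and 0.343 relative to its chromosome, with -0.13 to 0.13 when 1 library was left out (0.0185 without TF1-BA replicate 2, 0.125 without TF1-BAR replicate 1). ALOX12 turned to -0.0739 without TF1-BAR replicate 2 (-0.074 to 0.45 when 1 library was left out), and TBXAS1 to 0.0454 with TPM and 0.00589 without TF1-BAR replicate 1 (-0.0393 to 0.00589 when 1 library was left out). ALOX5AP, PTGS1, PTGS2 and PTGDR2 kept their direction in all 16 alternatives, with log2 fold changes of 0.74 to 0.92, 0.83 to 0.97, -2.00 to -0.92 and 0.65 to 0.87. ACSL4 no longer passed with TPM (adjusted p = 0.0636) or without the variance trend (0.0849), where CYSLTR1 passed (0.0294), and DPEP2 no longer did with quantile normalization (0.0636) or relative to its chromosome (0.0651). The median log2 fold change of all tested genes was 0.125 with TPM and -0.004 with quantile normalization.

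The replicate numbers come from the sample titles, and the deviations of same-numbered libraries correlated at 0.0646 with only 2 pairs, so the numbers are not shown to pair the samples. With the replicate block the calls were 0 higher and 1 lower among the 10, and 2 higher and 3 lower among the other pathway genes. The adjusted p became 0.0164 for ALOX5AP, 0.0115 for PTGS1, 0.0197 for PTGS2 and 0.0190 for PTGDR2. Of 30 genes followed, PTGER3 (0.0396) and PTGES3 (0.0365) passed with the block and DPEP2 (0.0556) no longer did. Fragment numbers were low for LTC4S, ALOX15, ALOX12 and PTGS2.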
